A study of Mus musculus with 8 samples.

Results

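The 10 core circadian clock genes Arntl, Clock, Npas2, Per1, Per2, Cry1, Cry2, Nr1d1, Nr1d2 and Dbp were followed in the cortex of 8 tau-transgenic mice, 1 RNA-seq library per mouse. The rule picked them by gene name from the 54532 genes listed and used no measured value, but earlier results of these data were known. All 10 were among the 17195 genes that passed the filter on low counts. All mice were 8 months old, on a C57BL/6 background, singly housed under equal light and dark periods, and carried the PS19 transgene, which encodes human 1N4R tau with the P301S mutation under the mouse prion promoter. The 4 PS19 mice (m677, m668, m665 and m659) carried no Adrb1 mutation, and the 4 Adrb1-A187V;PS19 mice (m671, m661, m660 and m658) also carried 1 mutant copy of Adrb1, the β1-adrenergic receptor gene, as a CRISPR knock-in. The question was whether this mutation altered the cortical transcriptome of tau mice. The time of day at which each mouse was killed is not given in the sources used here, no mouse without the tau transgene was among the 8, and a gene count in the mouse genome shows neither the point mutation nor the human transgene, so the genotype labels were not checked from the counts.

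The mammalian clock is a transcriptional feedback loop. ARNTL (BMAL1) pairs with CLOCK, or with NPAS2 in forebrain, binds E-box sequences and activates the Per and Cry genes, whose products return to block the pair. The same pair activates Nr1d1 and Nr1d2, which encode the REV-ERB repressors, and these silence Arntl through sequences called ROREs that the ROR receptors also bind. Dbp, Tef and Hlf encode PAR bZIP factors, an output arm driven through E-boxes. In a clock-bearing tissue Arntl therefore peaks at a different time of day from Nr1d1, Nr1d2 and Dbp, and a single set of tissue samples records where each animal stood when it was killed. Per1 is in addition an immediate early gene, switched on by neuronal activity and by glucocorticoids.

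Promoter windows, 250 bases before to 50 after each RefSeq start site on build GRCm38.p6, were found for 9 of the 10 genes and not for Per2. The 9 genes had 13 windows. Matches are named by gene, whereas the shares beside them are of windows. Sequences are shown only for Arntl, Nr1d1, Cry1 and Per1, picked because they carry letters through which the loop is known to act. On both strands, the E-box CACGTG was found in windows of Cry1 and Per1, against 7.15% of all 32851 windows. The E'-box CACGTT was found in windows of Cry1, Cry2 and Nr1d1, against 4.68% of all windows. The RORE core TAGGTCA and a variant core TAGGTTA, the latter chosen with the Arntl sequence known, were both found in Arntl, against 2.61% and 1.44% of all windows. The D-box TTANGTAA (2.32% of all windows) and the CRE TGACGTCA (1.79%) were found in no member's window. The windows of Clock, Npas2, Nr1d2 and Dbp held none of the 6 motifs. None of these 6 motifs overlapped another in the sequences shown. A match describes these letters only, and no match says nothing of sites elsewhere in the gene. The Arntl sites are given as 30 bases each, at chr7:113207530-113207559 and chr7:113207494-113207523 on the plus strand, with the RORE core or its variant in capitals.

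Arntl RORE core: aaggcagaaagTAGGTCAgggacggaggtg

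Arntl RORE variant core: tggtcggaaagTAGGTTAgtggtgcgacat

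The bases before the start sites of Nr1d1 (chr11:98775378-98775627, minus strand), Cry1 (chr10:85185065-85185304, minus strand) and Per1 (chr11:69098699-69098947, plus strand) carry an E-box or E'-box in capitals, each read 5′ to 3′ on the gene's strand, so that an E'-box on the other strand appears as AACGTG. The Per1 start site used here lay inside the gene span of the deposited annotation (chr11:69095217-69109960).

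Nr1d1 upstream: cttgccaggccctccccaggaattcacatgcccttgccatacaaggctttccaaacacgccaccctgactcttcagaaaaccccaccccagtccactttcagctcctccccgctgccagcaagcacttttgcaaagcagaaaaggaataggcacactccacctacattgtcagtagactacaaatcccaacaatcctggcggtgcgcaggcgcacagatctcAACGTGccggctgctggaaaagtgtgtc

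Cry1 upstream: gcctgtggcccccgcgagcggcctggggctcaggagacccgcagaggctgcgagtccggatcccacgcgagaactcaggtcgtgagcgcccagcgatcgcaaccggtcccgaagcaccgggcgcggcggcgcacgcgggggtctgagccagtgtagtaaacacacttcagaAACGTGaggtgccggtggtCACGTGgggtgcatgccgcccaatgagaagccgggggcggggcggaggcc

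Per1 upstream: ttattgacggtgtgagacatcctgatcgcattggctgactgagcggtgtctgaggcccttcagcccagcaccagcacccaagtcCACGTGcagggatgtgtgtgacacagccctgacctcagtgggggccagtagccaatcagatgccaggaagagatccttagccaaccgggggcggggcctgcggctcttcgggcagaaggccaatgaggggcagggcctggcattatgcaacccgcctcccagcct

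The libraries held between 14653222 and 21223754 counts assigned to genes, with TMM factors of 0.990 to 1.01 and 4.58% to 5.31% of counts from mitochondrial genes. All 7 markers of cortical excitatory neurons passed the filter, and their summed level was 1615 to 1852 CPM, the count scaled to library size, in PS19 and 1465 to 1683 in Adrb1-A187V;PS19. All 7 had negative log2 fold changes, and Neurod6 (-0.27), Slc17a7 (-0.19) and Tbr1 (-0.13) had an unadjusted p under 0.05 but none after adjustment (edgeR). Markers of neighbouring tissue varied from mouse to mouse. The 6 basal forebrain cholinergic markers summed to 15.2 to 30.2 CPM in PS19 and 32.0 to 44.5 CPM in Adrb1-A187V;PS19, and all 6 were higher at an unadjusted p under 0.05 (edgeR). The 7 striatal projection neuron markers summed to 519 to 1113 CPM in PS19 and 544 to 1256 CPM in Adrb1-A187V;PS19, with 7 positive log2 fold changes (median 0.34) and none at an unadjusted p under 0.05. The 4 choroid plexus markers summed to 359 CPM in m668, 563 CPM in m658 and 142 CPM in m659, and to 18.2 to 66.8 CPM in the other 5 mice. The 5 astrocyte markers summed to 1032 to 1236 CPM in m668, m665, m671 and m661 and to 1724 to 1869 CPM in the other 4 mice, which again mixed the genotypes. Of 6 markers of the suprachiasmatic nucleus, the brain's master clock, Six6 and Nms had under 10 counts in every mouse and 2 passed the filter. In bulk tissue fewer cells of a type and less RNA per cell cannot be told apart.

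Every member was expressed well above the filter, from a lowest count of 326 for Cry1 to a highest of 2725 for Cry2. Per kilobase of gene length, which allows levels of different genes to be compared, the REV-ERB gene Nr1d1 stood highest at 26.4 ± 1.72 CPM per kb (mean ± SD, n = 8 mice). Nr1d2 followed at 20.8 ± 0.966 and Cry2 at 20.4 ± 1.11 CPM per kb, levels that did not differ beyond their spread. Dbp stood at 16.0 ± 2.66, Per1 at 12.5 ± 3.23 and Npas2 at 10.6 ± 0.560 CPM per kb, and of these Per1 overlapped both neighbours within 1 SD. Clock (9.13 ± 0.459), Cry1 (6.19 ± 0.514), Arntl (5.38 ± 0.683) and Per2 (4.70 ± 0.827) closed the order. Of these, Arntl overlapped Cry1 and Per2 within 1 SD, and Clock overlapped Per1. Part of the exons of 4 members lies under exons of a gene on the other strand, and whether counting used strand is not stated. The shares were 18.01% of Dbp (with Sphk2), 8.55% of Nr1d1 (with Thra), 4.67% of Cry2 (with D930015M05Rik) and 0.439% of Arntl (with Gm45355). Sphk2 was at 24.2 CPM and Thra at 572.2 CPM, and their log2 fold changes between the genotypes were -0.01 and -0.01.

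No difference between Adrb1-A187V;PS19 and PS19 was detected in any of the 10 clock genes. No member reached an unadjusted p under 0.05 in edgeR's quasi-likelihood test, against 2.80% of all genes tested (481 of 17195, 245 higher and 236 lower), and none passed after Benjamini-Hochberg adjustment, nor did any other gene (0.00%). By DESeq2 and by limma-voom no member passed at an unadjusted p under 0.05 either. The CPM ranges of the genotypes overlapped for all 10 members, whereas 2.02% of all genes tested did not overlap. Their median log2 fold change was -0.00059, with 5 positive and 5 negative, beside 0.00046 over all genes tested. The edgeR p-values set each genotype difference against the spread between mice within 4 and 4, estimated with help from all genes tested. The smallest p an exact permutation test of 4 against 4 can give is 0.0286.

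Of the activators, Arntl, the non-redundant partner of the loop, was at 34.5, 49.1, 38.7 and 39.4 CPM in the 4 PS19 mice (m677, m668, m665 and m659) and at 35.6, 39.2, 40.0 and 47.2 CPM in the 4 Adrb1-A187V;PS19 mice (m671, m661, m660 and m658). The genotypes covered the same range, with the highest mouse of each, m668 and m658, apart from the rest. The means were 40.4 ± 6.17 vs. 40.5 ± 4.85 CPM (SD, n = 4 each), a log2 fold change of 0.01 ± 0.11 (SE), with a 95% interval of -0.22 to 0.23. Clock, which encodes the partner of ARNTL, was at 123.5 ± 4.17 vs. 127.2 ± 8.13 CPM, with an interval of -0.08 to 0.16. Npas2, its forebrain counterpart, was at 50.1 ± 2.51 vs. 51.5 ± 3.02 CPM, with an interval of -0.09 to 0.18. All 3 estimates of the activators were positive, and each was smaller than its standard error.

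The repressors of the Period and Cryptochrome families had 4 negative estimates of 4, none past the test. Per1 varied most, at 53.5, 92.6, 93.0 and 46.7 CPM in the PS19 mice and 87.2, 59.3, 64.9 and 65.7 CPM in the Adrb1-A187V;PS19 mice, in the same order of mice. Its high mice were of both genotypes. The log2 fold change was -0.05 ± 0.20, with an interval of -0.47 to 0.37, so a change of up to 1.30-fold upward or to 0.723 of the PS19 level lay within the error.

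Per2 was at 28.8, 30.4, 23.3 and 34.3 CPM in PS19 and 23.6, 20.5, 26.8 and 32.5 CPM in Adrb1-A187V;PS19, with a log2 fold change of -0.17 ± 0.14 (unadjusted p = 0.230 by edgeR, interval -0.47 to 0.12). Of the 4 PS19 mice, 3 lay within the Adrb1-A187V;PS19 range, and m661 lay under all PS19 mice. Without m658 the log2 fold change was -0.30 at an unadjusted p of 0.0342 and an adjusted p of 0.9997 by edgeR. Cry1, the stronger repressor of the Cryptochrome pair, was at 20.8 ± 1.98 vs. 20.6 ± 1.71 CPM. Cry2 was at 132.4 ± 6.63 vs. 125.9 ± 6.53 CPM, a log2 fold change of -0.07 ± 0.06, and its lowest mouse was m660.

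The REV-ERB genes were almost level between the genotypes. Nr1d1 was at 90.6, 75.2, 81.2 and 79.5 CPM in PS19 and 81.5, 86.4, 81.2 and 74.8 CPM in Adrb1-A187V;PS19, with a log2 fold change of -0.01 ± 0.07 and an interval of -0.15 to 0.13. Nr1d2 was at 118.3, 101.7, 117.3 and 109.7 CPM and at 115.2, 113.7, 111.7 and 112.3 CPM, with a log2 fold change of 0.02 ± 0.06 and an interval of -0.10 to 0.14. In each gene 1 of the mice with the highest Arntl was the lowest of all 8, m658 for Nr1d1 and m668 for Nr1d2.

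Dbp, the output factor, had the largest estimate among the members. It was at 52.9, 38.0, 44.0 and 41.9 CPM in PS19 and 63.6, 46.4, 51.1 and 44.8 CPM in Adrb1-A187V;PS19. Each Adrb1-A187V;PS19 mouse lay above the 3 lower PS19 mice, while the PS19 mouse m677 lay above all Adrb1-A187V;PS19 mice but m671. The means were 44.2 ± 6.33 vs. 51.4 ± 8.52 CPM, a log2 fold change of 0.22 ± 0.11 with an interval of -0.03 to 0.46, which corresponds to 0.979-fold to 1.38-fold. The unadjusted p was 0.0807 by edgeR and 0.200 by the 2-sided exact permutation test of CPM. With 1 mouse left out, Dbp passed an unadjusted p of 0.05 but no adjusted threshold in 3 cases. These were without m677 (log2 fold change 0.31, unadjusted p = 0.0147 by edgeR), without m661 (0.26, unadjusted p = 0.0496 by edgeR) and without m658 (0.28, unadjusted p = 0.0379 by edgeR). Without m671, the mouse with the highest Dbp, the log2 fold change fell to 0.10 (unadjusted p = 0.342 by edgeR), and without m668 it was 0.15 (unadjusted p = 0.216 by edgeR). With no filter on low counts its unadjusted p by edgeR was 0.00398 and its adjusted p 0.655. The basal forebrain cholinergic markers were higher and 3 excitatory neuron markers lower in Adrb1-A187V;PS19 at an unadjusted p under 0.05, as given above, and their part in the Dbp value was not tested.

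**Figure D1:**
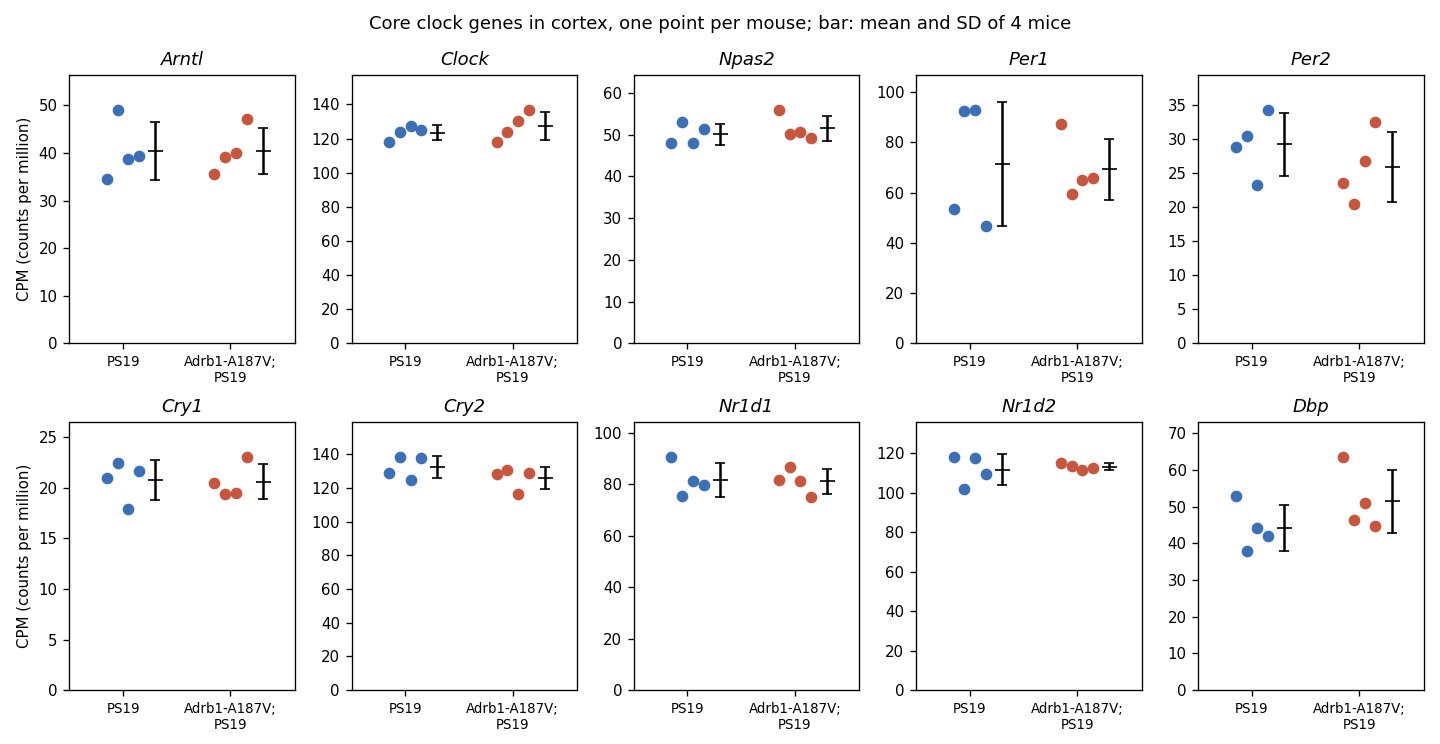
CPM of the 10 core clock genes, 1 panel per gene with its own axis from 0, 1 point per mouse (blue PS19, red Adrb1-A187V;PS19), with the mean and SD of 4 mice as bars. The points of the genotypes overlap in every panel; Per1 spans 46.7 to 93.0 CPM and Arntl has 1 mouse of each genotype above 47 CPM.

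No difference was detected in the pathway around the core loop either. Of 26 further clock genes, 0 passed an unadjusted p of 0.05 by edgeR, DESeq2 or limma-voom, beside the 2.80% of all genes, with 12 positive and 14 negative log2 fold changes and a median of -0.01. Fbxl21, an F-box protein that ubiquitinates cryptochromes, had the smallest unadjusted p at 0.127, with a log2 fold change of 0.28 ± 0.17. Of the repressors outside the core, Per3 was at 48.9 ± 10.03 vs. 46.8 ± 4.38 CPM and Ciart, an inhibitor of CLOCK and ARNTL, at 8.37 ± 2.14 vs. 8.83 ± 1.51 CPM. Bhlhe40 and Bhlhe41, which compete for E-boxes, had log2 fold changes of -0.11 ± 0.09 and 0.02 ± 0.11. Among the RORE activators, Rora was at 93.2 ± 9.05 vs. 93.5 ± 8.83 CPM and Rorb at 45.8 ± 1.66 vs. 49.9 ± 7.16 CPM. Tef, the most abundant PAR bZIP transcript by CPM, was at 344.5 ± 16.1 vs. 346.3 ± 19.0 CPM, and Nfil3, the repressor that shares the D-box with these factors, at 11.3 ± 0.796 vs. 11.2 ± 0.742 CPM. All 9 kinase, ligase and deubiquitinase genes and all 4 output genes were likewise short of the threshold, as were the 9 glucocorticoid-responsive genes. Of the latter, Fkbp5 was at 27.8 vs. 27.9, Sgk1 at 46.8 vs. 49.9 and Tsc22d3 at 44.8 vs. 45.6 mean CPM.

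**Figure D2:**
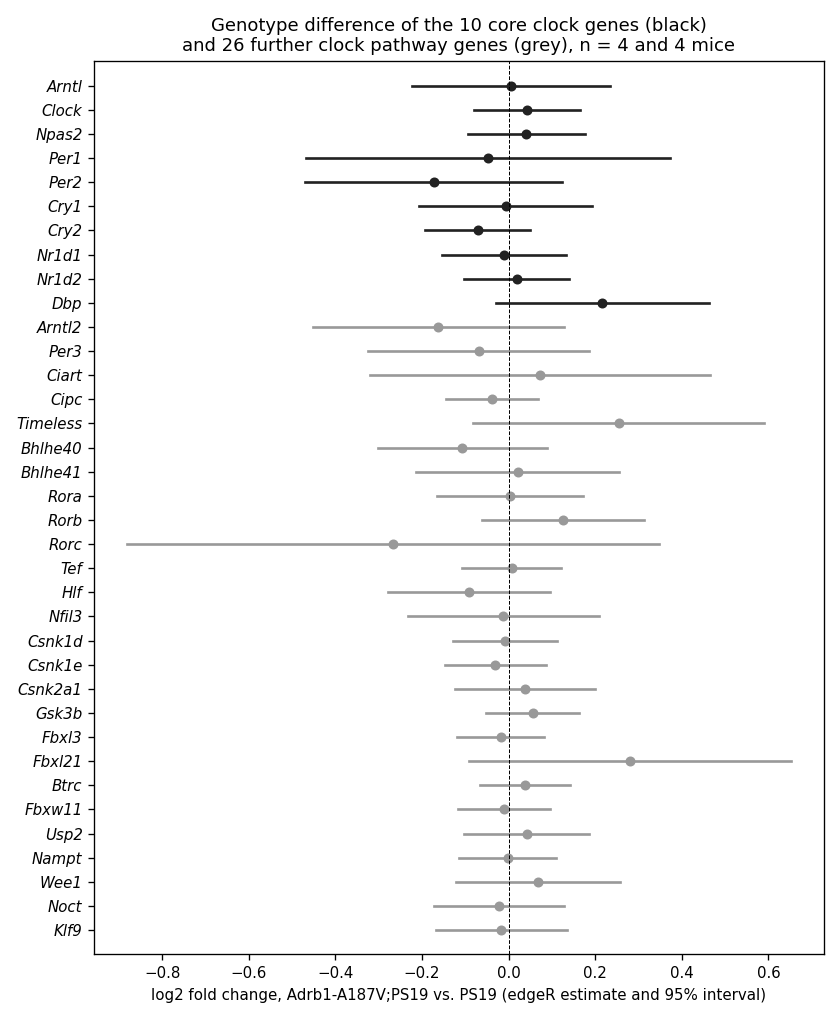
Log2 fold change of Adrb1-A187V;PS19 vs. PS19 with its 95% interval (horizontal axis, edgeR) for the 10 core genes in black and 26 further clock pathway genes in grey (vertical axis), n = 4 mice each. Every interval includes 0, and Dbp lies farthest from 0 among the core genes at 0.22.

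The clock genes differed from each other in how far the mice spread. On the log2 scale the SD within genotype was 0.41 for Per1, 0.26 for Per2, 0.21 for Dbp and 0.19 for Arntl, which exceeded the SD of 99.3%, 95.6%, 95.1% and 91.8%, respectively, of the genes of like mean level. The ratio of the highest to the lowest mouse was 1.99 for Per1, 1.67 for Dbp, 1.67 for Per2 and 1.42 for Arntl. Nr1d1 (SD 0.10), Cry1 (0.13), Npas2 (0.08), Cry2 (0.07), Clock (0.07) and Nr1d2 (0.07) were tighter, at percentiles of 29.9 to 63.4 among genes of like level. Counting error alone, at 2.09% to 5.24% of the mean, was smaller than the CV of every member, which ran from 4.15% for Nr1d2 to 26.2% for Per1. Over the 10 genes the median percentile among all genes tested, whatever their level, was 35.6. For each of the 10 the percentile among genes of like level was higher than that among all genes.

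Relations between the members were then taken over all 8 mice, as Pearson's r and Spearman's rho of log2 CPM, each with a 2-sided exact permutation p over all 40320 orders of the mice. Of 45 pairs, 4 had a p under 0.05 for r, 3 negative and 1 positive, and none passed after Benjamini-Hochberg adjustment over the 45, the smallest adjusted p being 0.358 (0.109 for rho). The values are therefore descriptions of these 8 mice. The 3 negative pairs all had Arntl on one side, with Nr1d1, Nr1d2 and Dbp on the other, and so share the Arntl values. The 9 pairs with Per1 counted in the family, but their r is not given because Per1 fell into separate sets of mice.

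Arntl and Nr1d1 ran opposite to each other. Any part of the RORE letters of the Arntl window, shown above, in this relation was not tested. The mouse with the lowest Arntl, m677, had the highest Nr1d1 (34.5 and 90.6 CPM), and the 2 mice with the highest Arntl, m668 and m658, had the 2 lowest Nr1d1 (75.2 and 74.8 CPM). The log2 ratio of Arntl to Nr1d1 was -1.39 in m677, between -1.19 and -1.01 in m671, m661, m665, m660 and m659, -0.66 in m658 and -0.62 in m668. Both ends of this order held mice of PS19, and the upper end held both genotypes. The r was -0.85 (exact permutation p = 0.00851, adjusted 0.358) and rho was -0.88 (exact permutation p = 0.00724, adjusted 0.109). Centred on the genotype means r was -0.85 (exact permutation p = 0.0191 within genotype), and it was -0.92 in the 4 PS19 and -0.73 in the 4 Adrb1-A187V;PS19 mice. Without m668 and m658, the mice farthest from the Arntl median, r was -0.60 (exact permutation p = 0.154). The relation thus depended in part on that pair of mice, while with any 1 mouse left out r stayed between -0.91 and -0.79. Of the 17194 other genes tested, 0.785% had an r with Arntl at least as negative.

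Nr1d2 followed Nr1d1 in part. Its r with Arntl was -0.78 (exact permutation p = 0.0159, adjusted 0.358), rho was -0.88 (exact permutation p = 0.00724, adjusted 0.109), and the centred r was -0.80. Without m668 and m658 r was -0.69 (exact permutation p = 0.150 over 6 mice). The 2 mice acted in opposite ways, since r was -0.57 without m668 alone (exact permutation p = 0.170) and -0.92 without m658 alone (exact permutation p = 0.00992). Without m677 r was -0.73 (exact permutation p = 0.0601). Of all other genes 2.001% had an r with Arntl at least as negative. In m658, which had the second highest Arntl, Nr1d2 was at 112.3 CPM, in the middle of the 8 mice. The REV-ERB genes had an r of 0.68 with each other (rho 0.76, exact permutation p = 0.0604 and 0.0368, adjusted 0.532 and 0.414), and r was 0.77 without m677 and m658.

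Arntl and Dbp had an r of -0.73 (exact permutation p = 0.0406, adjusted 0.456) and a rho of -0.67 (exact permutation p = 0.0831, adjusted 0.433). The 2 mice with the lowest Arntl, m677 and m671, were the 2 with the highest Dbp (52.9 and 63.6 CPM), and the mouse with the highest Arntl, m668, had the lowest Dbp (38.0 CPM). Within genotype the values lay closer to a line, with a centred r of -0.86 (exact permutation p = 0.0208), -0.92 in PS19 and -0.81 in Adrb1-A187V;PS19. Without m668 and m658 r was -0.68 (exact permutation p = 0.151 over 6 mice), a value close to that over all 8. Leaving out m677, m668, m671, m661 or m660 singly also took its p over 0.05, with r from -0.74 to -0.58.

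Per2 and Cry1, both repressors of the loop, ran in the same direction across mice. Their r was 0.78 (exact permutation p = 0.0239, adjusted 0.358), rho was 0.88 (exact permutation p = 0.00724, adjusted 0.109) and the centred r was 0.83. Without m661 and m659, the mice farthest from the Per2 median, r was 0.86 (exact permutation p = 0.0319). Without m658 alone r was 0.73 (exact permutation p = 0.0635). The highest Per2 levels were in m659 and m658 (34.3 and 32.5 CPM), where Cry1 was at 21.6 and 23.1 CPM, and 3 of the 4 lowest Cry1 levels (17.9, 19.4 and 20.5 CPM in m665, m661 and m671) fell in the 3 mice with the lowest Per2.

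Of the partners of ARNTL, Clock had an r of 0.65 with Arntl (exact permutation p = 0.0776, adjusted 0.532, rho 0.57 with p = 0.151, adjusted 0.550), and 0.92 without m668 and m658 (exact permutation p = 0.0153). Npas2, which can stand in for CLOCK in the pair, had an r of 0.06 with Arntl. Npas2 was highest in m671 (56.0 CPM) and m668 (53.1 CPM), at opposite ends of the Arntl order.

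**Figure D3:**
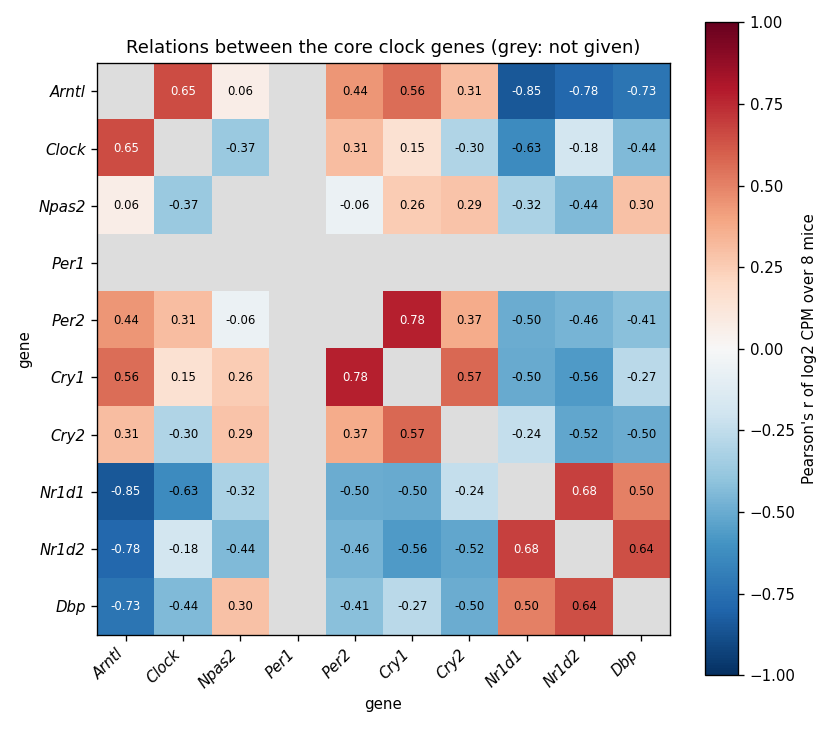
Pearson's r of log2 CPM over 8 mice for pairs of core clock genes (both axes list the genes; red positive, blue negative, grey not given because Per1 fell into separate sets of mice). The strongest cells are Arntl with Nr1d1 at -0.85, Arntl with Nr1d2 at -0.78 and Per2 with Cry1 at 0.78.

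In the output arm, Tef also ran opposite to Arntl. The E-box was found in 2 of its windows, beside 7.15% of all windows, and its part in this relation was not tested. Tef was at 367.1, 331.5, 344.7 and 334.6 CPM in PS19 and 372.3, 343.3, 343.3 and 326.4 CPM in Adrb1-A187V;PS19. Its 2 highest mice, m671 and m677, were those with the lowest Arntl and the highest Dbp, and its 2 lowest, m658 and m668, were those with the highest Arntl. With Arntl r was -0.86 (exact permutation p = 0.0123, adjusted 0.320) and rho was -0.93 (exact permutation p = 0.00223, adjusted 0.116). Without m668 and m658 it was -0.93 (exact permutation p = 0.0347), so it did not rest on those mice, and 0.570% of all other genes had an r with Arntl at least as negative. With Dbp r was 0.86 (exact permutation p = 0.00474, adjusted 0.246, rho 0.71 with p = 0.0576, adjusted 0.374), the centred r was 0.96, and 0.233% of all other genes had an r with Dbp at least as high. Without m671 and m668 that r was 0.74 (exact permutation p = 0.0722).

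Tef was 1 of 26 pathway genes related to Arntl and Dbp, a family of 52 relations in which 5 had a p under 0.05 and none passed after adjustment. The other 3 were Arntl with Gsk3b, a kinase that acts on clock proteins (r 0.78, exact permutation p = 0.0233, adjusted 0.320, rho 0.52, 0.59 without m668 and m658), Arntl with Bhlhe40 (r 0.76, exact permutation p = 0.0246, adjusted 0.320, rho 0.79, 0.47 without the same mice) and Dbp with Bhlhe40 (r -0.71, exact permutation p = 0.0447, adjusted 0.435, rho -0.79, -0.72 without m671 and m668). Ciart, at 5.90 to 10.4 CPM, had an r of -0.65 and a rho of -0.81 with Arntl (exact permutation p = 0.0878 and 0.0218, adjusted 0.435 and 0.290). Hlf had an r of -0.69 with Arntl and 0.19 with Dbp. Per3 had an r of -0.43 with Arntl and 0.05 with Dbp, and it was highest in m665 at 62.2 CPM, a mouse in the middle of the Arntl order.

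**Figure D4:**
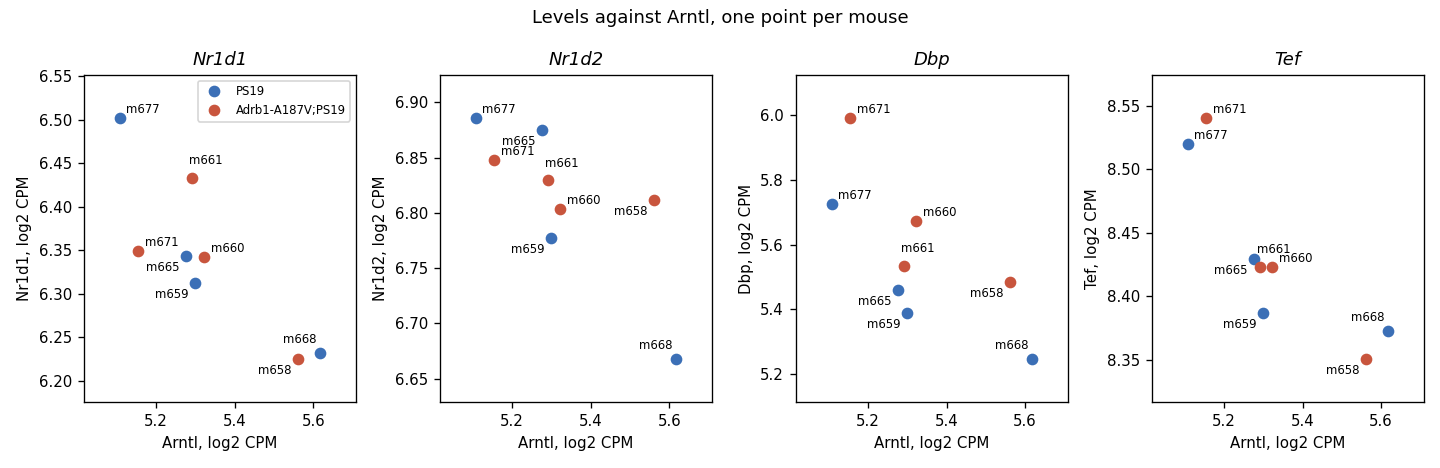
Log2 CPM of Nr1d1, Nr1d2, Dbp and Tef (vertical axes) against log2 CPM of Arntl (horizontal axes), 1 labelled point per mouse, blue PS19 and red Adrb1-A187V;PS19. The points run downward in all 4 panels, with r of -0.85, -0.78, -0.73 and -0.86, and m668 and m658 stand apart at the right of each panel.

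Tissue markers moved with these relations. The 2 mice with the highest Arntl, m668 and m658, were also the 2 with the highest summed choroid plexus markers, given above. Nr1d1 had an r of -0.89 with that list (exact permutation p = 0.00201, adjusted 0.0964 over 48 relations of 4 clock genes with 12 marker lists) and a rho of -0.90 (exact permutation p = 0.00456, adjusted 0.219), the strongest of the 48. Without the 2 mice farthest from the median of the list that r was -0.71. Arntl had an r of 0.80 with it (exact permutation p = 0.0189, adjusted 0.302) and a rho of 0.69 (exact permutation p = 0.0694, adjusted 0.555), and r was 0.16 without the same 2 mice, so the Arntl relation rests on them. The 5 oligodendrocyte markers summed to 4637 to 6249 CPM in PS19 and 4857 to 5795 CPM in Adrb1-A187V;PS19, and had an r of -0.79 with Arntl (exact permutation p = 0.0176, adjusted 0.302, rho -0.81 with p = 0.0218, adjusted 0.523, r -0.80 without the 2 mice farthest from the median of the list). Given the choroid plexus level, the partial r was -0.49 for Arntl with Nr1d1, -0.58 with Nr1d2 and -0.64 with Dbp, and 0.56 for Per2 with Cry1. Given the oligodendrocyte level, the same partial r were -0.70, -0.37, -0.48 and 0.65. Given each of the other 10 marker lists, total counts or the mitochondrial share, the partial r of Arntl lay between -0.96 and -0.68, and that of Per2 with Cry1 between 0.56 and 0.85. The relations of Arntl with Nr1d1, Nr1d2 and Dbp, and of Per2 with Cry1, therefore kept their sign given any single list, total counts or the mitochondrial share. They had lower values given the choroid plexus or oligodendrocyte list. Per2 with Cry1 was also lower given total counts (partial r 0.56). Partial r was not taken for Tef or the other pathway genes. The part of tissue make-up or depth in these relations was not tested further.

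Per1 followed neither Arntl nor Per2. It was at 87.2 to 93.0 CPM in m668, m665 and m671, which are mice of both genotypes, and at 46.7 to 65.7 CPM in the other 5 mice. Per2 was among its 3 lowest levels in m665 and m671 (23.3 and 23.6 CPM). The log2 ratio of Per1 to Per2 ran from 0.45 in m659 to 2.0 in m665.

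The same 3 mice were the 3 highest for 7 of 13 immediate early genes, Fos, Junb, Egr1, Egr2, Arc, Nr4a1 and Dusp1, beside 2.82% of all genes tested. They were not the 3 highest for Fosb, Egr3, Egr4, Npas4, Ier2 and Btg2, and Egr3 was highest in m659, at 215.0 CPM. This look at the 3 highest mice was chosen after the Per1 values had been seen. Arc, which encodes a synaptic protein made on neuronal activity, was at 171.0, 249.6 and 244.4 CPM in m668, m665 and m671 and at 38.7 to 92.6 CPM in the others. Fos, the classic activity marker, was at 23.2, 29.7 and 27.2 CPM in these mice and at 7.29 to 15.1 CPM in the others. Nr4a1, an orphan nuclear receptor of the same class, was at 108.6, 135.4 and 128.8 CPM against 40.8 to 61.6 CPM. No mouse of the other 5 reached the level of these 3 in any of these 3 genes.

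Of the 13 immediate early genes, 0 passed an unadjusted p of 0.05 between the genotypes by edgeR, with 11 negative and a median log2 fold change of -0.13, and each genotype held mice of the high and the low set. Of the 9 other core genes none shared the 3 highest mice of Per1. Of the 26 pathway genes Nfil3 and Klf9 did, and of the 9 glucocorticoid-responsive genes Ddit4 did, but Fkbp5, Sgk1 and Tsc22d3 did not. Several marker lists moved with these mice. The 5 thalamus markers summed to 51.9, 55.7 and 59.3 CPM in m668, m665 and m671, the 3 lowest of the 8, and to 65.5 to 81.0 CPM in the other 5. The striatal markers summed to 1113, 785 and 1256 CPM in these 3 mice and to 519 to 1022 CPM in the others, so the sets overlapped. The astrocyte markers were low in these 3 mice and in m661, as given above, and the 5 microglia markers likewise summed to 243 to 301 CPM in those 4 mice and 359 to 419 CPM in the other 4. The part of tissue make-up in the Per1 levels was not tested.

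**Figure D5:**
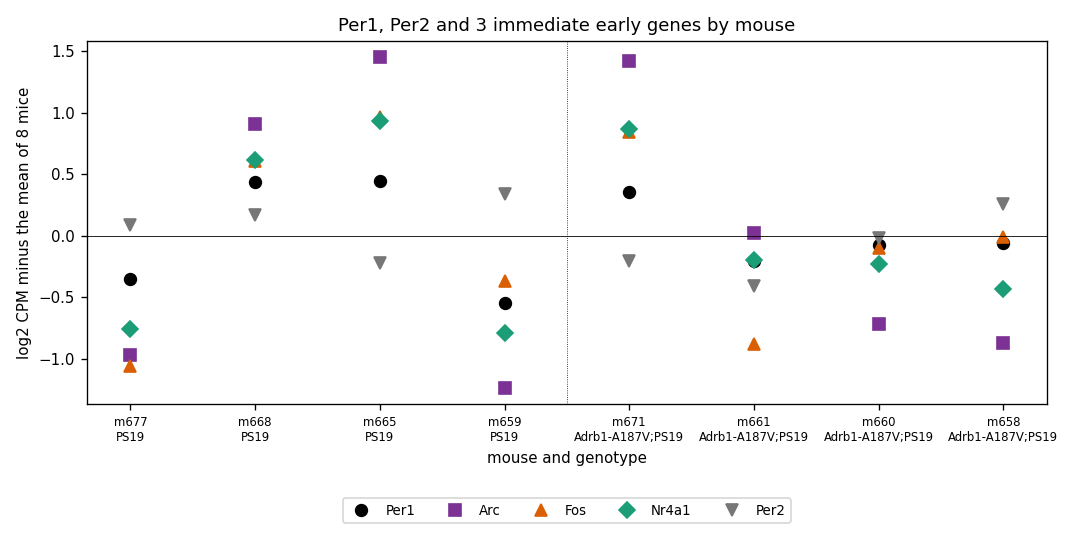
Log2 CPM minus the mean of 8 mice (vertical axis) for Per1, Per2 and the immediate early genes Arc, Fos and Nr4a1 in each mouse (horizontal axis, PS19 left of the dotted line and Adrb1-A187V;PS19 right). Per1, Arc, Fos and Nr4a1 are highest in m668, m665 and m671, whereas Per2 is highest in m659.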

How the data were processed

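RNA was measured in the cortex of 8 mice, 4 PS19 and 4 Adrb1-A187V;PS19, with 1 paired-end library per mouse. The authors aligned reads to GRCm38/mm10 with HISAT2 2.0.5 and deposited raw counts per Ensembl gene from featureCounts 1.5.0-p3, and their own test was DESeq2 1.20.0. The strand and multiple-mapping settings are not given in the sources used here. Counts that cannot be assigned to one copy of a gene, or that lie where genes overlap on opposite strands, may therefore be lost or shared. Gene length is the deposited column.

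Genes were filtered with filterByExpr, scaled by TMM factors and fitted with edgeR 4.0.16 in R 4.3.3 (glmQLFit and glmQLFTest, 2-sided, no covariate, Benjamini-Hochberg over 17195 genes), after a check on simulated counts. Relations used log2 CPM with a prior count of 2 and exact permutations. For each pair, r was repeated without the 2 mice farthest from the median of its first gene. Genes of like level were those with a mean CPM within a factor of 2 of the member's. Each mouse had 14653222 to 21223754 counts. Counting error covers sampling of reads only, and the precision of the genotype estimates also rests on the spread between mice.

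All 10 members are named, with 8 pathway genes (Per3, Ciart, Tef, Bhlhe40, Bhlhe41, Rora, Rorb and Nfil3), any pathway gene past an unadjusted p of 0.05, the extreme pairs, the 5 genes most and least like Arntl and Dbp, and Fkbp5, Sgk1, Tsc22d3, Fos, Arc and Nr4a1. Other genes were named after their values were seen. The members and lists were chosen with earlier results of these data known. Replicates were numbered in accession order. Alternatives were DESeq2 1.42.0, limma-voom (limma 3.58.1), DESeq2 size factors, no filter beyond 1 count, at least 10 counts in every mouse, a prior count of 0.5, values centred on genotype, and each mouse left out. Partial r given each marker list and the share of genes with an r as far were added after seeing the data.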

Additional observations from a re-analysis of the deposited data

Results flagged for a closer look

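Of 48 groups of 4 mice looked at (24 clock, pathway and response genes in each genotype), 3 held a mouse whose gap to its nearest neighbour took up over 0.829 of the range of the group, the 95% critical value of Dixon's test, which chance passes in about 1 in 20 groups. All 3 were in Adrb1-A187V;PS19. Cry2 was at 116.2 CPM in m660, below the other 3 mice at 128.4 to 130.5 CPM, with a gap of 0.855 of the range. Rora was at 106.7 CPM in m661, above 88.95 to 89.14 CPM in the other 3 mice, with a gap of 0.989 of the range. Nr4a1 was at 128.8 CPM in m671, above 52.4 to 61.6 CPM in the other 3 mice, with a gap of 0.880 of the range, and m671 was also the highest Adrb1-A187V;PS19 mouse for Per1, Fos and Arc.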

How the results depend on the processing

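The 10 members gave 130 log2 fold changes under the alternatives, from -0.30 to 0.31, of which 125 stayed on the same side of an unadjusted p of 0.05 and 17 changed sign. The 5 that passed were Dbp in 4 settings and Per2 without m658, so the count of members past this p was 1 with no filter beyond 1 count and 0 to 2 with 1 mouse left out. Dbp stayed positive in all 13 alternatives (0.10 to 0.31) and Per2 negative (-0.30 to -0.07). The pathway count was 0 to 2 with 1 mouse left out (Bhlhe40 without m677 and without m658, Rorb without m671, Arntl2 and Fbxl21 without m661). With no filter beyond 1 count 1366 of 33614 genes passed the unadjusted p, against 431 to 674 under the others, and 66 passed the adjusted one, none a member. The count of pairs of members stayed at 3 to 5. The count of pathway relations was 3 without the 2 farthest mice and 3 to 9 with 1 mouse left out (3 without m677, m668 or m658 and 9 without m671). Clock with Arntl reached an r of 0.95 without m668, and Ciart with Arntl -0.94 without m659. The median percentile of the spread among all genes tested was 31.1 to 41.5 with 1 mouse left out (lowest without m658, highest without m671). The cause of these shifts was not tested. No paired analysis was possible because every mouse number in the labels is unique, and litter, batch and day are not named. The paper states that controls were littermates, so any litters shared between the genotypes were not taken into account. With 8 mice, differences inside the 95% interval of each member were not excluded.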

Other observations

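Among 12124 genes with a mean of at least 5 CPM, those most like Arntl across the 8 mice were Ptpn12 (r 0.97), Rnf121 (0.97), Tacc1 (0.95), Il17rd (0.94) and Xpot (0.94). The most opposite were Srd5a1 (-0.99), Zc4h2 (-0.96), Snx21 (-0.96), Gm48226 (-0.94) and Herpud1 (-0.94). Srd5a1 encodes a steroid 5α-reductase and Herpud1 a protein of the endoplasmic reticulum stress response. Those most like Dbp were Nim1k (0.95), Gpx4 (0.94), Ddx47 (0.93), Polm (0.92) and Nr3c2 (0.92), of which Gpx4 encodes a peroxidase that protects lipids and Nr3c2 the mineralocorticoid receptor. The most opposite to Dbp were Nrip1 (-0.96), Rbm45 (-0.94), Katnal1 (-0.94), Pter (-0.94) and Med1 (-0.94), of which Nrip1 and Med1 encode cofactors of nuclear receptors. These are the ends of 12124 values over 8 mice that share library and depth, and are given as a description. None of the 10 core clock genes could be among them, and of the pathway genes Tef, at -0.86 with Arntl and 0.86 with Dbp, did not reach either end.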
